A study of Mus musculus with 32 samples.

Results

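Splicing factors and neuronal RNA-binding proteins were followed in the striatum of mice that carried an expanded huntingtin allele, the mismatch repair knockout Msh3-/-, both or neither. The genes were taken by a rule on symbols, which was chosen with earlier results of these data known. It covers all protein-coding genes of the Srsf, Hnrnp, Sf3a, Sf3b, U2af, Rbfox, Celf, Elavl, Nova, Mbnl, Ptbp and Khdrbs families, and Qk. The rule found 68 of the 54532 genes in the count table. Of these, 67 had enough reads to be tested, among 16610 tested genes. Mbnl3 did not, since it reached no more than 0.264 counts per 1000000 reads (CPM) in any of the 32 mice. The tested genes comprised 11 SR proteins, 20 hnRNPs, 9 subunits of SF3A and SF3B, 3 U2AF genes, 3 Rbfox, 6 Celf, 4 Elavl, 2 Nova, 2 Mbnl, 3 Ptbp and 3 Khdrbs genes, and Qk.

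Bulk RNA-seq covered the dissected striatum of 32 mice aged 6 months, with 4 genotypes of 8 mice: wild-type, Msh3-/-, zQ175 and zQ175:Msh3-/-. The wild-type, Msh3-/- and zQ175 groups were balanced, at 4 mice of either sex. Sexes were uneven in the last group, where only 3 animals were female and 5 were male. zQ175 is a knock-in allele that carries a long CAG repeat in the mouse's own Htt gene, so every cell that expresses Htt expresses it. Msh3-/- animals are homozygous for a germline knockout of Msh3, whose product takes part in repeat expansion. Msh3 itself was measured at 24.5 ± 1.61 CPM (SD, n = 8) in wild-type and 24.4 ± 1.53 CPM (n = 8) in zQ175 striata, and at 11.8 ± 1.2 CPM (n = 8) in Msh3-/- and 12.9 ± 1.15 CPM (n = 8) in zQ175:Msh3-/- striata, with no overlap between mice with and without the knockout. These counts cover the whole gene, of which the knockout deletes a part, so they do not measure remaining function. In Msh3-/- cortex the paper reports ablated mRNA by primers in the deleted region and no detectable MSH3 protein.

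Most mammalian pre-mRNAs are spliced in more than a single way, and neurons do so more than other cells. SR proteins bind exons and favour their inclusion, hnRNPs often oppose them, and U2AF and the SF3A and SF3B complexes recognize the end of the intron and the branch point. Rbfox, Celf, Elavl, Nova, Mbnl, Ptbp, Khdrbs and Quaking proteins add tissue-specific control, and several of them also set the stability, transport or translation of mRNAs in the cytoplasm. The counts used here are sums per gene, so they give how much RNA each factor had, not which exons it or its targets included.

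These genes were abundant in striatum. On the TPM scale, which corrects for transcript length, their summed level was 9193 ± 202 (n = 8) in wild-type, 9085 ± 239 (n = 8) in Msh3-/-, 9305 ± 117 (n = 8) in zQ175 and 9415 ± 225 (n = 8) in zQ175:Msh3-/- mice, between 0.908% and 0.942% of all TPM. Over all mice, the highest mean TPM was 683 for Hnrnpa2b1, an hnRNP of RNA processing and transport, ahead of 471 for the SR protein gene Srsf5 and 356 for Celf4. Among the families with a mainly neuronal role, Rbfox3, which encodes the NeuN antigen, had a mean of 284 TPM, Rbfox1 257, Mbnl2 189 and Celf2 178. The lowest tested members were Khdrbs2 at 11.0 TPM, Ptbp3 at 12.6 and Celf6 at 17.8. Between paralogs the order was marked: Mbnl2 stood above Mbnl1 at 70.3 TPM, and the neuronal Ptbp2 at 64.3 TPM stood above Ptbp1 at 30.6, the form of dividing and non-neuronal cells. Elavl3, at 142 TPM, stood above the ubiquitous Elavl1 (HuR) at 31.2 and its neuronal relatives Elavl2 at 27.2 and Elavl4 at 17.9. Nova2 at 31.2 TPM stood above Nova1 at 21.4.

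The comparison of zQ175 with wild-type mice asks how the expanded Htt allele alters RNA levels while Msh3 is intact. Rbfox1 was lower in zQ175 striata, with a percent change of -22.4%, Celf1 was lower, with a percent change of -20.0%, and Nova1 was higher by 21.3%. They were the 3 of 67 members (4.48%) that passed both thresholds, an adjusted p under 0.05 (edgeR's quasi-likelihood test, Benjamini-Hochberg over all genes tested) and a change of at least 1.2-fold. Over all genes tested 11.6% passed, with 4.7% of all genes higher and 6.89% lower, so this share of the members was below that of the genes at large. The adjusted p alone was under 0.05 for 18 members (26.9%), against 26.5% of all genes. Of the 18, 5 were higher (7.46% of the members, 13% of all genes) and 13 lower (19.4% of the members, 13.5% of all genes).

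**Figure D1:**
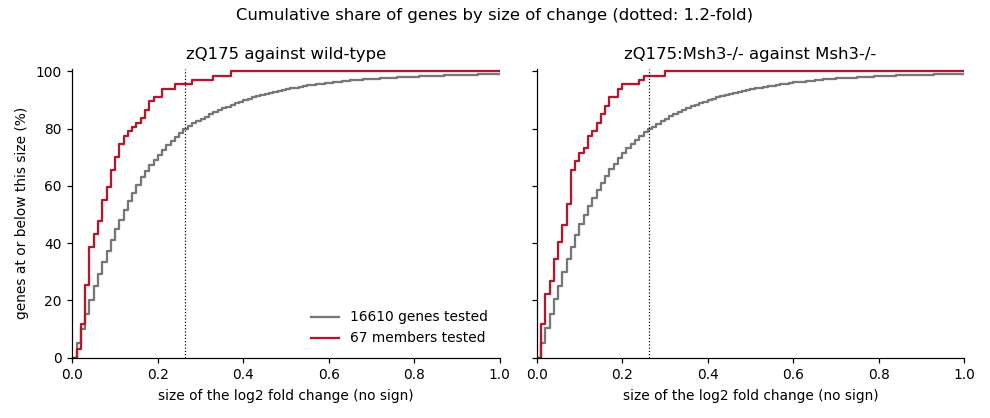
Cumulative percentage of genes (y axis) whose log2 fold change, without its sign, was at or below the value on the x axis, for the 67 members and for all 16610 genes tested, in zQ175 against wild-type (left) and zQ175:Msh3-/- against Msh3-/- mice (right). The members' curve lies to the left of that of all genes: 70.1% of members and 44.9% of all genes changed by no more than 0.10 in the left panel.

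The changes of the members were small beside those of other genes. The median size of the log2 fold change, without its sign, was 0.06 over the 67 members and 0.11 over all genes tested. With its sign, the median was -0.02 for the members and 0.01 for all genes. The members were also measured tightly, with a median SE of 0.04 against 0.07 over all genes tested, so that a change of 10% could pass the test. Between Msh3-/- and wild-type mice, where 0.00602% of all genes passed the adjusted p, the median size was 0.04 over the members and 0.05 over all genes. The members thus had a smaller size in that comparison too, where the median SE was 0.04 over the members and 0.07 over all genes. The part of measurement error in these sizes was not tested. The split between higher and lower members depended on the scale. Tested by limma on log2(TPM + 0.1), 17 members had an adjusted p under 0.05, and 13 of them (76.5%) were higher in zQ175 mice, while on counts 5 of 18 (27.8%) were. Over all genes tested, 71.4% of those that passed were higher on the TPM scale and 49.0% on counts. The median of all genes was 0.07 on the TPM scale and 0.01 on the count scale, and the median of the members was 0.03 and -0.02. None of the 18 members changed sign between the scales, and 9 of them passed on both: Srsf2, Srsf6, Hnrnph2, Elavl3 and Nova1 were higher, and Rbfox1, Celf1, Celf2 and Mbnl2 were lower. The plot of log2 fold changes on both scales shows this shift for the whole set.

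**Figure D2:**
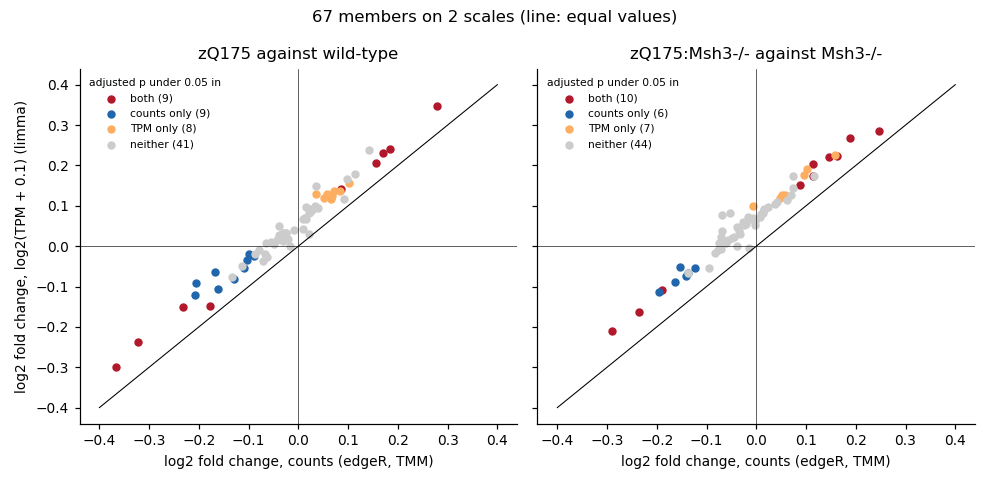
Log2 fold change of each of the 67 members on counts (x axis, edgeR with TMM scaling) and on log2(TPM + 0.1) (y axis, limma), in the 2 comparisons of the zQ175 allele, coloured by the scale on which the adjusted p was under 0.05. Nearly all points lie above the line of equal values, and 9 members passed on both scales in zQ175 against wild-type and 10 in zQ175:Msh3-/- against Msh3-/-.

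Rbfox1 encodes a splicing regulator of neurons and muscle that binds GCAUG and controls exons of synaptic and ion channel genes. It spans 1526172 bases of chromosome 16 (GRCm38, 5885355 to 7411526, plus strand), the longest gene of the set. In the 8 wild-type mice Rbfox1 RNA ran from 321 to 357 CPM (median 325), and in the 8 zQ175 mice from 233 to 283 CPM (median 253). Every zQ175 mouse was below every wild-type mouse. The log2 fold change was -0.37 ± 0.04 (SE), with an edgeR adjusted p of 2.11e-08, and the exact two-sided permutation test over mice gave the smallest p that 8 against 8 allow, 0.000155. Between mice that lacked Msh3, Rbfox1 ran from 291 to 336 CPM (median 321) without and from 244 to 293 CPM (median 272) with the zQ175 allele. These groups overlapped only at their edges, with a log2 fold change of -0.24 ± 0.04 (edgeR adjusted p = 7.41e-05), short of 1.2-fold. The 2 effects differed by 0.13 on the log2 scale (95% interval 0.01 to 0.25), a difference with an unadjusted p of 0.0371 and an edgeR adjusted p of 0.999.

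Celf1, which encodes a binder of GU-rich RNA that acts in splicing and in mRNA decay, lies on chromosome 2 (GRCm38, 90940382 to 91019497, plus strand). It ran from 308 to 378 CPM (median 325) in wild-type and from 246 to 278 CPM (median 269) in zQ175 mice. In Msh3-/- mice it ran from 307 to 350 CPM (median 321), and in zQ175:Msh3-/- mice from 253 to 280 CPM (median 266). Neither pair of groups overlapped. The log2 fold changes were -0.32 ± 0.04 and -0.29 ± 0.04, with edgeR adjusted p-values of 1.25e-08 and 1.42e-07. The gene was the only member past both thresholds in each pair of genotypes on counts, and on the TPM scale its changes of -0.24 and -0.21 kept adjusted p-values under 0.05 but fell short of 1.2-fold.

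Nova1 encodes a neuronal splicing factor, first found as an autoimmune antigen, that binds YCAY clusters, and lies on the minus strand of chromosome 12 (GRCm38, 46694517 to 46818929). Wild-type mice held 52.6 to 56.2 CPM (median 54.6) and zQ175 mice 62.5 to 70.3 CPM (median 65.8). Msh3-/- mice held 46.3 to 56.9 CPM (median 55.3) and zQ175:Msh3-/- mice 59.6 to 69.6 CPM (median 64.5). Again every mouse with the allele was outside the range of its controls, here above it. The log2 fold change was 0.28 ± 0.04 with Msh3 (edgeR adjusted p = 1.11e-07) and 0.25 ± 0.04 without it (edgeR adjusted p = 1.70e-06), the latter just under 1.2-fold on counts and 0.28 on the TPM scale. Each value rests on 589 to 1745 reads. The paralog Nova2 had a log2 fold change of 0.01 (95% interval -0.06 to 0.09) in the pair with Msh3.

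**Figure D3:**
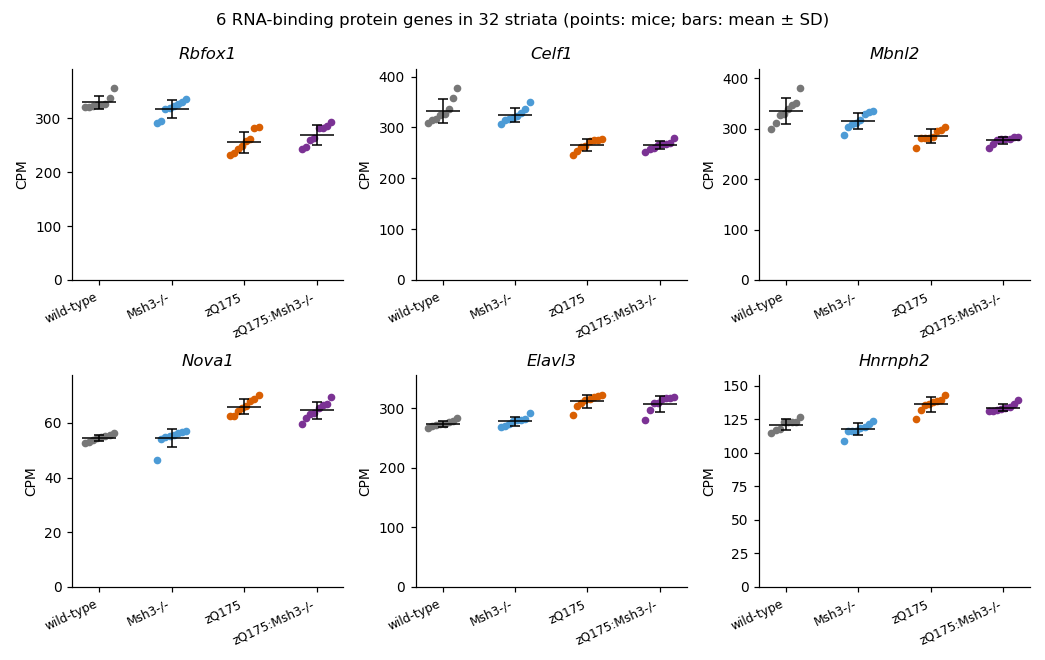
CPM (y axis, from 0) of Rbfox1, Celf1, Mbnl2, Nova1, Elavl3 and Hnrnph2 in each of 32 striata by genotype (x axis). Points are mice and the black bars are the mean and SD of 8 mice. The zQ175 mice sit below all wild-type mice for Rbfox1 (233 to 283 against 321 to 357 CPM) and above them for Nova1 (62.5 to 70.3 against 52.6 to 56.2 CPM).

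The sequences before the starts of Rbfox1 and Celf1 are shown because these were the members called lower. They were read from RefSeq on GRCm38.p6 and hold the 250 bases before each annotated start, 5′ to 3′ on the strand of the gene, with matches to 5 promoter motifs in capitals. The motifs were the TATA box TATAAA, the CCAAT box CCAAT, the GC box GGGCGG, the cAMP response element TGACGTCA and the E-box CACGTG, searched on both strands with overlaps counted.
Rbfox1, chr16:5884543-5884792, plus strand: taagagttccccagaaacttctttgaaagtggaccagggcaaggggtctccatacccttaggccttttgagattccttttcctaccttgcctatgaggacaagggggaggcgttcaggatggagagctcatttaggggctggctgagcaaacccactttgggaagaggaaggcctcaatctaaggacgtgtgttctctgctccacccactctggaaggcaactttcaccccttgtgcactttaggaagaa
Rbfox1, chr16:7069585-7069834, plus strand: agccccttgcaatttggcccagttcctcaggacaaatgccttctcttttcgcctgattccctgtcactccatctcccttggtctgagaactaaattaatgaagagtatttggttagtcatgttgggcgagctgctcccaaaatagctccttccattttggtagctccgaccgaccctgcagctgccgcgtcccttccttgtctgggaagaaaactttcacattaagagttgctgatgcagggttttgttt
Celf1, chr2:90940147-90940396, plus strand: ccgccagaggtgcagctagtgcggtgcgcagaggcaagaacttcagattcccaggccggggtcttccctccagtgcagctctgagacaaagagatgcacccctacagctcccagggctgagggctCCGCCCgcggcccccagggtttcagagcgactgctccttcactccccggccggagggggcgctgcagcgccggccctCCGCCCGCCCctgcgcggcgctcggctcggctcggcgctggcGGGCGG
Celf1 held 4 matches to the GC box, of which a pair overlap, and 24 CpG dinucleotides, as many as or more than 89.3% of the 32851 promoters in the table. The windows of the 2 starts of Rbfox1 held 2 and 6 CpG and no match to any of the 5 motifs. Sequences were found for 58 of the 68 members, with 97 starts. The GC box was in 62.9% of the members' windows and 32.7% of all windows, CCAAT in 47.4% and 33.8%, TATAAA in 9.28% and 12.4%, TGACGTCA in 4.12% and 1.55%, and CACGTG in 5.15% and 6.02%. The median number of CpG per window was 18 for the members and 6 for all promoters. These are matches of letters, and no binding was measured. The windows of all promoters came from 27025 genes, more than the 16610 tested, so they include genes not tested in striatum.

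The other Rbfox genes had smaller values on counts. Rbfox3 ran from 305 to 338 CPM (median 312) in wild-type and from 265 to 324 CPM (median 283) in zQ175 mice, with overlapping ranges. Its log2 fold changes of -0.13 ± 0.04 (edgeR adjusted p = 0.0208) and, without Msh3, -0.12 ± 0.04 (edgeR adjusted p = 0.0295) no longer passed on the TPM scale (-0.08 and -0.05). Rbfox2, which is also expressed outside neurons, had positive values of 0.09 ± 0.04 (edgeR adjusted p = 0.0883) and 0.10 ± 0.04 (edgeR adjusted p = 0.0614). These values of Rbfox2 were 0.12 (limma adjusted p = 0.0597) and 0.19 (limma adjusted p = 0.00221) on the TPM scale, and with sex in the model on counts the second, 0.11, also passed.

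In the Celf family, the adjusted p called 4 of 6 genes lower with the allele in mice that had Msh3, and 3 of 6 in mice that lacked it, where 13.5% and 12.3% of all genes were lower by the same threshold. On the TPM scale Celf1 and Celf2 passed in the first pair and Celf1 in the second. Celf2, which shares its RNA preference with Celf1, ran from 425 to 482 CPM (median 454) in wild-type and from 363 to 421 CPM (median 409) in zQ175 mice, without overlap. Its log2 fold change was -0.18 ± 0.04 (edgeR adjusted p = 3.98e-04), against -0.07 ± 0.04 (edgeR adjusted p = 0.174) between the mice that lacked Msh3. Celf5, a brain-enriched paralog, was lower in both pairs (-0.21 ± 0.04 and -0.14 ± 0.04, edgeR adjusted p = 3.63e-04 and 0.0182), and so was Celf3 (-0.16 ± 0.05 and -0.15 ± 0.05, edgeR adjusted p = 0.0177 and 0.0278), but neither passed on the TPM scale. Celf4, the most abundant paralog, had a log2 fold change of 0.10 ± 0.05 (edgeR adjusted p = 0.126) on counts and 0.16 on the TPM scale, where its adjusted p was 0.0201. Celf6 had 0.02 ± 0.07, with an edgeR adjusted p of 0.858.

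Mbnl2 encodes the muscleblind protein that carries most of the family's splicing activity in brain. It ran from 299 to 381 CPM (median 334) in wild-type and from 262 to 304 CPM (median 282) in zQ175 mice, which overlapped slightly, and from 288 to 335 CPM (median 314) in Msh3-/- and 262 to 285 CPM (median 279) in zQ175:Msh3-/- mice, which did not. It fell in both pairs, with log2 fold changes of -0.23 ± 0.04 (edgeR adjusted p = 1.55e-05) and -0.19 ± 0.04 (edgeR adjusted p = 3.45e-04). The values of Mbnl2 on the TPM scale were -0.15 and -0.11 (limma adjusted p = 0.00378 and 0.0413), and the latter did not pass without the filter on low values. Mbnl1 had values of -0.07 ± 0.04 in both pairs (edgeR adjusted p = 0.140 and 0.144).

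Elavl3, a neuronal Hu protein gene whose product stabilizes AU-rich mRNAs, was higher with the allele. It ran from 267 to 283 CPM (median 273) in wild-type and 288 to 322 CPM (median 314) in zQ175 mice, without overlap, and from 268 to 291 CPM (median 280) and 279 to 318 CPM (median 312) in the pair without Msh3, which overlapped. The log2 fold changes were 0.18 ± 0.03 (edgeR adjusted p = 4.88e-06) and 0.15 ± 0.03 (edgeR adjusted p = 1.77e-04). Elavl1, Elavl2 and Elavl4 did not pass in either pair. Elavl4 had the widest interval of the set, with a log2 fold change of 0.14 and a 95% interval of -0.13 to 0.41.

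The Ptbp and Khdrbs genes showed no change by the adjusted p in either pair on counts. Ptbp2, which holds back adult exons in developing neurons, ran from 81.8 to 90.4 CPM (median 88.1) in wild-type and 82.4 to 95.1 CPM (median 89.8) in zQ175 mice. Its log2 fold change was 0.04 (95% interval -0.03 to 0.10) on counts and 0.13 on the TPM scale, where the adjusted p was 0.0124. Khdrbs1 (Sam68) had -0.05 ± 0.03 and -0.07 ± 0.03, and Khdrbs2 (SLM1) 0.10 ± 0.08 and 0.16 ± 0.08. The second value of Khdrbs2 on the TPM scale was 0.23 (limma adjusted p = 0.0428). Qk encodes Quaking, which directs the splicing of myelin genes in oligodendrocytes. It ran from 381 to 491 CPM (median 445) in wild-type and 366 to 460 CPM (median 395) in zQ175 mice, with a log2 fold change of -0.13 ± 0.05 that missed the threshold (edgeR adjusted p = 0.0566), and -0.16 ± 0.05 without Msh3, which met it (edgeR adjusted p = 0.0209). On the TPM scale the latter value was -0.09 (limma adjusted p = 0.275), and on counts it was -0.06 in males and -0.30 in females, a difference that was not tested. The value of Qk with Msh3 came under the threshold in other fits of the counts: DESeq2 (-0.14), RLE size factors (-0.14) and a replicate block (-0.13).

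**Figure D4:**
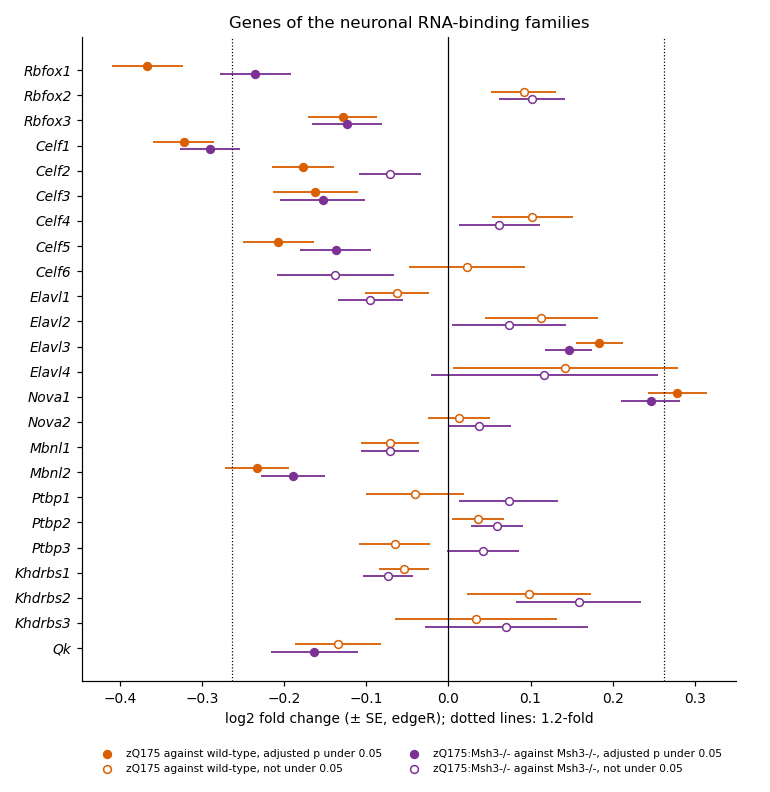
Log2 fold change (x axis, ± SE by edgeR) of the 24 tested genes of the neuronal families (y axis) in zQ175 against wild-type mice (orange) and zQ175:Msh3-/- against Msh3-/- mice (purple), filled where the adjusted p was under 0.05. Rbfox1 (-0.37 and -0.24) and Celf1 (-0.32 and -0.29) lie farthest to the left and Nova1 (0.28 and 0.25) farthest to the right.

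Among the general splicing factors none of 43 genes reached 1.2-fold in either pair on counts. Of the 20 hnRNP genes, 5 fell and 1 rose in zQ175 against wild-type mice by the adjusted p (13.5% of all genes fell and 13% rose), and on the TPM scale only the latter, Hnrnph2, passed. Without Msh3 none fell and 2 rose (12.3% of all genes fell and 11.8% rose). Hnrnpd (AUF1), whose product binds AU-rich elements, ran from 201 to 222 CPM (median 206) in wild-type and 155 to 194 CPM (median 181) in zQ175 mice, without overlap. Its log2 fold change was -0.21 ± 0.03 (edgeR adjusted p = 7.93e-06), but -0.09 on the TPM scale, where its adjusted p was 0.127, and -0.07 ± 0.03 on counts without Msh3 (edgeR adjusted p = 0.126). Hnrnph2, an X-linked gene for a binder of G-rich RNA named here after its values were seen, ran from 115 to 126 CPM (median 123) in wild-type and 125 to 143 CPM (median 137) in zQ175 mice. Its rise of 0.17 ± 0.03 (edgeR adjusted p = 9.41e-06) was matched by 0.19 ± 0.03 without Msh3 (edgeR adjusted p = 2.46e-06), where no mouse overlapped, and on the TPM scale both values were larger (0.23 and 0.27). Hnrnpa2b1, the most abundant member, had -0.04 (95% interval -0.10 to 0.02). The others that passed, also named after their values were seen, were Hnrnph3, Hnrnpll, Hnrnpu and Hnrnpul2, all lower with Msh3, with log2 fold changes between -0.17 and -0.09, and Hnrnpr, higher by 0.09 without it.

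Of the 11 SR protein genes, 2 rose with Msh3, where 13% of all genes did, and 3 rose and 1 fell without it, against 11.8% and 12.3% of all genes. Srsf6 had the smallest adjusted p of the family in zQ175 against wild-type mice. It ran from 123 to 149 CPM (median 132) in wild-type and 137 to 156 CPM (median 151) in zQ175 mice, with log2 fold changes of 0.16 ± 0.03 in both pairs (edgeR adjusted p = 6.27e-04 and 5.50e-04). Srsf5 had 0.01 ± 0.04 with Msh3 and 0.11 ± 0.04 without it (edgeR adjusted p = 0.901 and 0.0290). Outside the naming rule and chosen after their values were seen, Srsf2 was higher with Msh3 by 0.09, Srsf11 was higher without it by 0.11, and Srsf7 had -0.14 without it, where it did not pass on the TPM scale (-0.07). On that scale Srsf2, Srsf3, Srsf6 and Srsf11 were higher with Msh3 by the adjusted p. Without Msh3, Srsf5, Srsf6, Srsf11 and Srsf12 were higher there. Srsf3 and Srsf12 were also named after their values were seen.

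In the SF3A and SF3B complexes, which hold the branch point, 1 of 9 genes passed the adjusted p with Msh3 and none without it, against 26.5% and 24.1% of all genes. Sf3b1 ran from 290 to 334 CPM (median 308) in wild-type and 272 to 297 CPM (median 288) in zQ175 mice, with a log2 fold change of -0.10 ± 0.03 (edgeR adjusted p = 0.0126) on counts and -0.02 on the TPM scale (limma adjusted p = 0.728). On that scale Sf3a1, Sf3b4 and Sf3b6, named after their values were seen, had an adjusted p under 0.05 instead, with values of 0.13, 0.14 and 0.12. Of the 3 U2AF genes, which encode the factors that recognize the 3′ splice site, U2af2 had -0.03 (95% interval -0.10 to 0.04), and U2af1l4, a paralog of the small subunit gene, had -0.20 ± 0.06 without Msh3 (edgeR adjusted p = 0.0124) and -0.11 ± 0.06 with it (edgeR adjusted p = 0.158). The value of U2af1l4 without Msh3 was -0.11 on the TPM scale (limma adjusted p = 0.160). U2af1, named after its values were seen, had 0.07 with Msh3 on counts (edgeR adjusted p = 0.322). Its value in that pair on the TPM scale was 0.12 (limma adjusted p = 0.0446).

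The pair of zQ175:Msh3-/- and Msh3-/- mice gives the effect of the allele in 16 other mice. Here 1 of 67 members, Celf1, passed both thresholds (1.49%, against 10.6% of all genes), with no member called higher (4.68% of all genes) and 1 called lower (5.96% of all genes). The adjusted p alone was under 0.05 for 16 members (23.9%, against 24.1% of all genes), 7 higher (11.8% of all genes) and 9 lower (12.3% of all genes). On the TPM scale 17 members passed, 14 of them (82.4%) higher, against 7 of 16 (43.8%) on counts. Over all genes 75.8% of those that passed were higher on the TPM scale and 48.8% on counts. The members past both thresholds on the TPM scale were Nova1 and Hnrnph2, both higher. Groups did not overlap for 6 members (8.96%) with Msh3, against 6.63% of all genes, and for 4 members (5.97%) without it, against 5.39%. The 6 were Rbfox1, Celf1, Celf2, Nova1, Elavl3 and Hnrnpd, and the 4 were Celf1, Nova1, Mbnl2 and Hnrnph2.

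The adjusted p was under 0.05 in both pairs for 10 members, 55.6% of the 18 and 62.5% of the 16, and each of the 10 had the same direction in both. Over all genes tested 2831 passed in both pairs, 64.4% of those that passed with Msh3 and 70.7% of those that passed without it. They were Srsf6, Hnrnph2, Elavl3 and Nova1, which were higher, and Rbfox1, Rbfox3, Celf1, Celf3, Celf5 and Mbnl2, which were lower. Over the 67 members the log2 fold changes of the 2 pairs, which share no mouse, had Pearson's r of 0.83 and Spearman's rho of 0.77 as a description, since the members come from the same libraries in each pair. Log2 fold change in zQ175 against wild-type mice had an r of -0.18 (rho -0.09) with gene length and -0.33 (rho -0.35) with mean TPM over the same 67 genes. In the pair without Msh3 these were -0.02 (rho 0.03) and -0.22 (rho -0.19).

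Loss of Msh3 was compared in mice without and with the zQ175 allele. No member passed the adjusted p by edgeR between Msh3-/- and wild-type mice, none was called by DESeq2 or limma, and over all genes tested 0.00602% passed. An unadjusted p under 0.05 was found for 4 members, Srsf6, Srsf11, Hnrnpr and Mbnl2, all lower (5.97%, against 5.09% of all genes). Between zQ175:Msh3-/- and zQ175 mice no member passed (0.00602% of all genes), and 6 had an unadjusted p under 0.05 (8.96%, against 3.7% of all genes): Srsf2, Srsf7, Srsf10, Sf3b4 and U2af1 with negative values and Hnrnpd with a positive value of 0.08 (95% interval 0.01 to 0.14). For the members described first, the intervals of this last comparison were -0.01 to 0.16 for Rbfox1, -0.08 to 0.07 for Celf1 and -0.10 to 0.04 for Nova1. The difference between the effects of the allele with and without Msh3 passed for no member and for 0% of all genes by the adjusted p, and 4 members, Rbfox1, Hnrnpd, Hnrnpr and Sf3b4, had an unadjusted p under 0.05 (5.97%, against 4.44% of all genes).

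RNA of markers of several cell types also differed between genotypes. The summed level of 9 spiny projection neuron markers ran from 7633 to 9357 CPM in wild-type and 4086 to 5347 CPM in zQ175 mice, with 8 of 9 called lower in each pair of genotypes, while the sum of 6 pan-neuronal markers, which include Rbfox3, ran from 3907 to 4261 and 3698 to 4397 CPM. The 6 astrocyte markers summed to 3465 to 3781 CPM in wild-type and 2930 to 3214 CPM in zQ175 mice, without overlap. In the pair without Msh3 they summed to 3229 to 3763 CPM in Msh3-/- and 2949 to 3427 CPM in zQ175:Msh3-/- mice, which overlapped. Only 1 of the 6 was called lower with Msh3 and none without it, and their median log2 fold change was -0.11 in both pairs. The 6 oligodendrocyte markers, for cells in which Qk is high, summed to 8769 to 10746 and 6999 to 11168 CPM, with overlap. The 4 endothelial markers summed to 138 to 160 CPM in wild-type and 94.6 to 136 CPM in zQ175 mice, without overlap, and 2 of the 4 were called lower with Msh3 and none without it. Their sums of 113 to 172 CPM in Msh3-/- and 108 to 136 CPM in zQ175:Msh3-/- mice overlapped. None of the defining markers of these lists was at 0 in any group. In bulk tissue fewer cells of a type and less RNA per cell cannot be told apart, and the part of these markers in the members' changes was not tested. Choroid plexus markers exceeded 1000 CPM in 5 mice spread over all 4 genotypes, and without those mice 3 and 1 members were called, as with them.

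Elavl4 and Khdrbs3 varied most between mice of a genotype, with SDs of 0.28 and 0.20 on the log2 scale, ahead of Khdrbs2, Celf6 and Elavl2 at 0.15 each. Markers of cortical or other neighbouring excitatory neurons (the 5 genes Slc17a7, Neurod6, Tbr1, Slc17a6 and Tcf7l2) summed to 39.5 to 605 CPM across mice. None of the 5 was called, and their median log2 fold change with the allele was 0.51 with Msh3 and 0.42 without it. In the edgeR fit with the log2 of this sum as a covariate, chosen after seeing the data, 8 members (11.9%) had an adjusted p under 0.05 for its slope, against 9.52% of all genes. Khdrbs3, which encodes the SLM2 splicing regulator of neurexins, was higher by 0.17 ± 0.02 log2 units for each doubling of the sum (edgeR adjusted p = 2.03e-08), Elavl4 by 0.20 ± 0.04 (edgeR adjusted p = 2.41e-04) and Elavl2 by 0.09 ± 0.02 (edgeR adjusted p = 0.00233). Celf3, Hnrnpl, Hnrnpm, Hnrnph3 and Srsf5 had negative slopes. With the covariate, Elavl4 had a log2 fold change of 0.03 between zQ175 and wild-type mice in place of 0.14, and Khdrbs3 -0.07 in place of 0.03, while Rbfox1, Celf1 and Nova1 were still called.

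**Figure D5:**
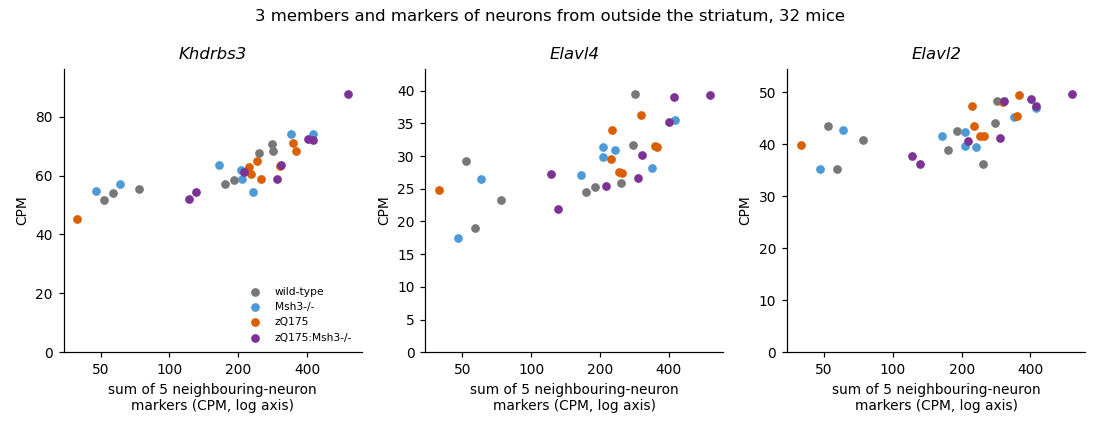
CPM of Khdrbs3, Elavl4 and Elavl2 (y axes, from 0) against the summed CPM of 5 markers of neighbouring excitatory neurons (x axis, log scale) in 32 mice, coloured by genotype. All 3 genes are higher in mice with more of the markers, with slopes of 0.17, 0.20 and 0.09 log2 units per doubling, and all 4 genotypes spread along the axis.

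Beyond these families, 3 lists of genes of the wider pathway were counted in the same fit, by both thresholds, which 11.6% of all genes passed with Msh3 and 10.6% without it. Of 66 genes of the core spliceosome, none was called in zQ175 against wild-type mice and 1, Txnl4a, was called lower without Msh3. Among 58 tested splicing regulators and SR protein kinases, 3 were called with Msh3 and 3 without it. Srrm4, the neuronal microexon regulator, was higher in both, with log2 fold changes of 0.49 ± 0.09 (edgeR adjusted p = 4.52e-05) and 0.34 ± 0.09 (edgeR adjusted p = 0.00336), and the SR protein kinase gene Srpk1 was lower in both (-0.33 ± 0.06 and -0.28 ± 0.07). Its paralog Srpk3 was higher with Msh3 (0.34 ± 0.13, edgeR adjusted p = 0.0428). Of 32 tested RNA-binding genes of mRNA transport, translation and decay, 5 (15.6%) were called in each pair. Caprin2 (0.68 and 0.66), Lin28b (0.37 and 0.36) and the cold-inducible genes Rbm3 (0.38 and 0.35) and Cirbp (0.31 in both) were higher, and Nanos1 (-0.40 and -0.42) was lower.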

How the data were processed

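Striatal poly(A) RNA was sequenced as paired reads of 150 bases. The authors deposited whole-number read counts per gene without normalization, and a second table of TPM values (named as FPKM, but each column sums to 1000000). The submitters' processing notes name GRCm38.p6, while the aligner, the counting program and its strand setting are not given in the sources used here, so reads of overlapping, antisense or near-identical genes (such as Hnrnpa1 and its pseudogenes) may be shared. Columns were matched to mice by mouse number and no column was left out. Symbols and positions are from GENCODE M21 on GRCm38, which held 54495 of 54532 IDs.

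Deposited counts sum to between 12359347 and 25030335 per mouse. CPM are scaled by TMM factors, and the TPM values are not. A single edgeR 4.0.16 model (R 4.3.3) of the 4 genotypes was fitted to 16610 genes that passed filterByExpr, with robust quasi-likelihood tests. Calls needed a Benjamini-Hochberg adjusted p under 0.05 over all genes tested and at least a 1.2-fold change, and the adjusted p alone is given beside them. For single members, log2 CPM were also permuted exactly (two-sided) over the 12870 arrangements of 8 mice against 8. The p-values measure the spread between mice. Replicate numbers were not treated as pairs in the main model. Among 45 pairs of equal number within a sex, correlations of deviations ran from -0.15 to 0.33 (median 0.05), with 14 over 0.1. Pairs of unequal number were not computed, so these values cannot show whether the numbers pair mice.

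The alternatives were DESeq2 1.42.0, RLE size factors, no filter, a minimum of 10 counts per mouse, sex as a term, the compared groups alone, a replicate block, limma 3.58.1 on log2(TPM + 0.1) with and without a filter and on log2(TPM + 1), each sex alone, and leaving out each mouse. Fold changes from TPM include the pseudocount, so those of low genes are understated. Python 3.11.15 with pandas 2.3.3, numpy 2.4.6, scipy 1.17.1 and matplotlib 3.10.9 made summaries and figures. The scripts were tested on simulated counts.

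The members and the lists were chosen with earlier results of these data known. Members named with values were all tested genes of the neuronal families (Rbfox, Celf, Elavl, Nova, Mbnl, Ptbp, Khdrbs and Qk), any other member called, the member with the smallest adjusted p and the member with the highest TPM in each of the SR, hnRNP, SF3 and U2AF families, Msh3, and called genes of the 3 wider lists. At most 4 genes per list fall under it, so Cirbp, Txnl4a and the genes said to be chosen after their values were seen lie outside it. One marker of the list for neighbouring excitatory neurons is not reported here, and the sum of that list leaves it out.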

Additional observations from a re-analysis of the deposited data

Results flagged for a closer look

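Among 132 sets of 8 mice (33 genes in 4 genotypes), 8 held a mouse whose gap to its nearest neighbour was large against the whole range of the set on the log2 scale, and chance flags about 1 set in 20, or 6.6 of 132. Nova1 was lowest in a female Msh3-/- mouse, at 46.3 CPM against 53.9 to 56.9 CPM in the other 7, a gap of 0.743 of the range. Elavl4 was lowest in a male Msh3-/- mouse, at 17.5 CPM against 26.5 to 35.5 CPM (0.588 of the range). Mbnl1 was highest in a female wild-type mouse, at 151 CPM against 124 to 134 CPM (0.606), and the same mouse had the highest Hnrnpd, at 222 CPM against 201 to 208 CPM (0.638). Hnrnpd was lowest in a male zQ175 mouse, at 155 CPM against 175 to 194 CPM (0.558). Another male zQ175 mouse had the highest Ptbp1, at 39.8 CPM against 31.1 to 34.3 CPM (0.599), and the lowest Khdrbs3, at 45.4 CPM against 58.8 to 71.0 CPM (0.579), and it was also the mouse with the lowest sum of neighbouring-neuron markers. Srsf5 was highest in a male zQ175:Msh3-/- mouse, at 412 CPM against 358 to 380 CPM (0.576).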

How the results depend on the processing

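The 3 members called in zQ175 against wild-type mice stayed 3 under DESeq2, RLE size factors, both other filters on counts, sex in the model, only the groups compared and the replicate block, and ranged from 3 to 3 when each mouse was left out, each time Rbfox1, Celf1 and Nova1. There were 2 on the TPM scale and in males (without Celf1), 5 in females (with Elavl4 and Mbnl2), and 18 by the adjusted p alone. Between zQ175:Msh3-/- and Msh3-/- mice 1 member (Celf1) was called under those count settings, the replicate block included, and with each mouse left out (1 to 1). There were 2 by limma on log2(TPM + 0.1), with or without the filter, and on log2(TPM + 1) (Nova1 and Hnrnph2), 2 in males (Celf1 and Rbfox1), 2 in females (Nova1 and Qk), and 16 by the adjusted p alone. Leaving out each mouse gave 0 to 0 for the 2 comparisons of Msh3 loss and for the interaction. By the adjusted p alone, leaving out each mouse gave 15 to 19 members in place of 18, and 12 to 18 in place of 16. Males alone gave 10 and 9, and females alone 14 and 7. The replicate block gave 19 and 15. The neighbouring-neuron covariate and the removal of 5 mice high in choroid plexus markers, both chosen after seeing the data, changed no call past both thresholds. Among the 32 members under the naming rule, no value that passed the adjusted p, as reported or under the alternative, changed sign, but values that passed in neither did. Outside that rule, Hnrnpu had -0.0056 between zQ175:Msh3-/- and Msh3-/- mice on counts and 0.099 on log2(TPM + 0.1), where it passed (limma adjusted p = 0.0323). On the TPM scales the values between zQ175 and wild-type mice became 0.018 or 0.019 for Ptbp1, 0.0085 or 0.0090 for Ptbp3, 0.011 or 0.012 for Khdrbs1, 0.026 or 0.027 for Hnrnpa2b1 and 0.031 for U2af2. There the values between zQ175:Msh3-/- and Msh3-/- mice became 0.023 or 0.024 for Mbnl1, 0.0086 or 0.0087 for Khdrbs1, 0.036 for Hnrnpd, 0.070 for Hnrnpa2b1, 0.0049 for Sf3b1, 0.065 or 0.066 for Sf3b2 and 0.014 for U2af2. There the values between Msh3-/- and wild-type mice became 0.0035 or 0.0036 for Celf5, 0.038 or 0.039 for Elavl1, -0.0037 or -0.0036 for Elavl2 and 0.0028 for Ptbp2. There the values between zQ175:Msh3-/- and zQ175 mice became 0.043 or 0.044 for Rbfox2, 0.0024 for Celf1, 0.013 for Elavl1, 0.0028 for Elavl3, 0.0084 or 0.0085 for Mbnl1 and 0.014 for Sf3b2. In the last comparison the replicate block gave -0.00090 for Celf4, -0.040 for Elavl4 and -0.00023 for Ptbp2, and Ptbp1 was -0.0024 without a filter on counts, -0.0076 with sex in the model and -0.00054 in the fit of only the groups compared. In the comparisons of the zQ175 allele, 9 and 12 values came under the adjusted p threshold and 15 and 19 left it over 10 settings that keep all mice compared, most on the TPM scale. Outside those settings, 1 sex alone brought 1 and 0 values under it and lost 6 and 11, and 1 mouse left out brought 4 and 13 under it and lost 2 and 19, of 512 values each. Signs changed for 7 and 5 values by sex and for 4 and 10 with 1 mouse left out, and for 3 and 4 under the settings added after seeing the data, none of which passed. Elavl4 had log2 fold changes of -0.16 in males and 0.49 in females between zQ175 and wild-type mice, and the difference between the sexes was not tested. At this depth a member's change had a median SE of 0.04 on the log2 scale. Splicing itself, protein levels and single cells were not measured.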
